A study of Mus musculus with 6 samples.

Results

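Lysosomes digest proteins, glycans and lipids with acid hydrolases, and the genes described here encode those enzymes, proteins of the lysosomal membrane, regulators of lysosomal transcription and the proton pump that acidifies the organelle. The set holds 59 of the 55487 genes in the deposited table. It joins 31 named genes (21 hydrolases and their cofactors, 8 membrane proteins and 2 transcription factors) with the 28 rows whose symbol starts with Atp6v or Atp6ap. Of those 28 rows, 9 are subunits of the membrane sector of the pump (V0), 13 are subunits of its catalytic sector (V1) and 3 are accessory proteins. Another 2 are pseudogenes of Atp6v0c, and 1, Atp6v1fnb, is named as a neighbour of Atp6v1f and is not a subunit.

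RNA-seq was done on YFP-positive cells sorted from the subventricular zone (SVZ), the stem cell niche along the lateral ventricles of the mouse brain. The 3 TKO libraries carried Rb(F/F);p107(-/-);p130(F/F), in which Rb and p130 are floxed on both alleles and p107, which the gene Rbl1 encodes, is deleted in the germ line. The 3 THC libraries carried Rb(F/+);p107(+/-);p130(F/+), so the controls also bear 1 floxed allele of Rb and p130 and 1 lost allele of p107, and are not wild type. Mice of both genotypes carried NestinCreERT2 and the R26;EYFP reporter on a C57BL/6;Sv/129 background, received tamoxifen by gavage (200 mg/kg per day for 5 days) starting at 6 to 10 weeks of age, and were sampled 10 days after the last dose. Each library pooled several mice to reach at least 200000 sorted cells. In each genotype, library 1 has the batch label February and libraries 2 and 3 have the label November.

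Nestin-driven Cre marks neural stem cells and the cells that descend from them, so the sort was not limited to quiescent stem cells. The libraries held markers of dividing progenitors, neuroblasts, oligodendrocytes, vessels, ependyma and microglia beside those of quiescent stem cells and astrocytes. In bulk RNA, fewer cells of a type and less RNA per cell cannot be told apart, and this holds for every gene below. Library totals were 15724797 to 16696645 normalized counts in TKO and 15959522 to 16378893 in THC. Rbl1 had 42.0, 18.3 and 14.5 normalized counts in TKO, against 520.2, 497 and 646 in THC, as the genotype labels have it (log2 change −4.56, SE 0.31, adjusted p = 2.3e-06, limma).

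The pump, a V-ATPase, couples ATP hydrolysis in its V1 sector to proton transport through the V0 ring in the membrane. Quiescent neural stem cells of the adult SVZ are known for large lysosomes, and the basic helix-loop-helix factors TFEB and TFE3 activate many lysosomal genes through a promoter element that contains TCACGTG. mTORC1, on the lysosome surface, holds both factors in the cytoplasm when nutrients are plentiful.

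Of the 59 genes, 52 reached a normalized count of at least 10 in at least 3 libraries and were tested. At an adjusted p under 0.05 (limma, Benjamini-Hochberg adjustment over all genes tested), 15 fell in TKO and 1, the pseudogene Atp6v0c-ps2, rose. The 15 make 28.8% of the 52, while 13.6% of all 17278 genes tested fell and 14.3% rose, 27.9% in either direction. The median log2 change was −0.20 over the 52 genes and −0.00 over all genes tested, and 42 of the 52 had a negative change. The 6 libraries did not overlap for 18 genes that were lower in TKO, a pattern that 19.5% of all genes tested showed, and for 2 that were higher, which 19.4% showed (38.9% in either direction). All 15 that fell had a negative difference in the February pair and in the November libraries, and 13 of them did not overlap, the exceptions being Lipa and Tpp1. In the authors' deposited table, all 16 calls passed an adjusted p of 0.05 in the same direction.

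**Figure D1:**
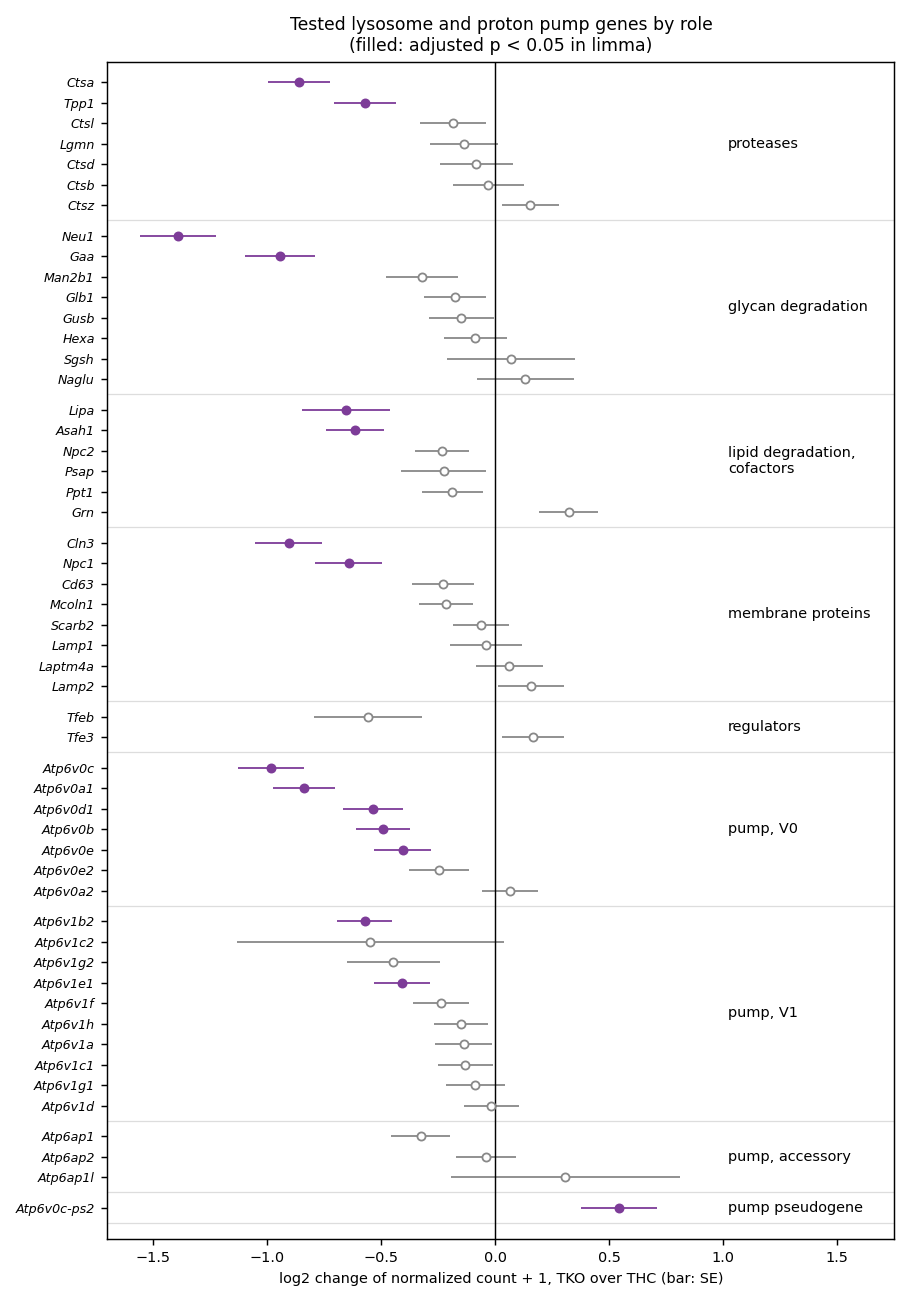
Log2 change, TKO over THC, of each tested gene, grouped by role, with bars of 1 SE from limma and filled points for genes past an adjusted p of 0.05. The falls are spread over enzymes, membrane proteins and pump subunits and run to −1.39 for Neu1, and the point of Atp6v0c-ps2 is the single filled one on the positive side.

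The regulators come first. Tfeb, the master activator of lysosomal genes, had 97.6, 150.5 and 101 normalized counts in TKO and 175, 172 and 159 in THC. Every TKO library was below every THC library, but the change did not pass (log2 −0.56, SE 0.24, adjusted p = 0.10). Tfe3, its close relative, had 709.5, 623 and 599 in TKO and 562, 581 and 574 in THC, with every TKO library the higher (log2 0.17, SE 0.13, adjusted p = 0.40). Per kilobase of exon, Tfe3 averaged 69.5 ± 6.28 normalized counts in TKO and 61.8 ± 1.01 in THC, and Tfeb 20.5 ± 5.20 in TKO and 29.7 ± 1.57 in THC (SD, n = 3 each). Neither factor met the threshold in either direction, and in the authors' deposited table neither did. In limma, 1 of the 2, Tfeb, had an unadjusted p under 0.05 (p = 0.037), while the authors' deposited table gave Tfeb an unadjusted p of 0.0508.

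The element bound by these factors can be read in the promoters. RefSeq promoter windows on GRCm38.p6, which run from 250 bases before to 50 bases after a gene's start, matched 47 of the 59 genes; Asah1, Atp6ap1l, Atp6v0a2, Atp6v0c-ps1, Atp6v0c-ps2, Atp6v0d2, Atp6v1b2, Atp6v1c1, Atp6v1g1, Atp6v1h, Ctsb and Npc1 had none. TCACGTG, read on both strands, was present for 14 of the 47 (29.8%) and for 4.29% of all 27025 genes with a window, or 6.5% of those also tested. The shorter CACGTG, which every TCACGTG contains, was present for 15 of the 47 (31.9%) and for 8.09% of all genes. The windows below show genes that fell in TKO and, for comparison, genes with as many or more copies that did not pass. Capitals mark TCACGTG or its reverse complement, including copies of both that overlap. Each is given 5′ to 3′ on the gene's own strand, and for Ctsa and Cln3, which have 2 windows, the one that holds the element is shown. For both genes, the start of that window lies inside the span of the gene in the annotation used for coordinates here, and the other window, at the outer end of the span, has no TCACGTG. A gene was counted when any of its windows held the element.
Ctsa: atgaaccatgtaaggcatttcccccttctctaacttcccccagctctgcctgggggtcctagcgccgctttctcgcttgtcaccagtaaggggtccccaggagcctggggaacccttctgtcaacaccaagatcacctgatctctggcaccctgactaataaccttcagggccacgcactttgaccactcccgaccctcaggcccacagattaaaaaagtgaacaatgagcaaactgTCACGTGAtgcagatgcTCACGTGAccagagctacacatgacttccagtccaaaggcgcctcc
Cln3: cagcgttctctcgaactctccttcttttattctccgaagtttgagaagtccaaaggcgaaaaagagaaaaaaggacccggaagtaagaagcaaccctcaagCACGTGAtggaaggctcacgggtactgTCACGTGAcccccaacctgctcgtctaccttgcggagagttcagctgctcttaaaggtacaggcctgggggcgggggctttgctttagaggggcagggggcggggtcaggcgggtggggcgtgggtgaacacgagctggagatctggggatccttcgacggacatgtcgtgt
Atp6v0b: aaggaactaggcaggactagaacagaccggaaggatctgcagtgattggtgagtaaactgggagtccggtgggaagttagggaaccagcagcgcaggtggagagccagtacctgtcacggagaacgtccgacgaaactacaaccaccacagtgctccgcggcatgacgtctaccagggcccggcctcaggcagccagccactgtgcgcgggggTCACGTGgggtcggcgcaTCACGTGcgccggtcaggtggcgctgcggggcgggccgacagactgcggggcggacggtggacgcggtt
Gaa: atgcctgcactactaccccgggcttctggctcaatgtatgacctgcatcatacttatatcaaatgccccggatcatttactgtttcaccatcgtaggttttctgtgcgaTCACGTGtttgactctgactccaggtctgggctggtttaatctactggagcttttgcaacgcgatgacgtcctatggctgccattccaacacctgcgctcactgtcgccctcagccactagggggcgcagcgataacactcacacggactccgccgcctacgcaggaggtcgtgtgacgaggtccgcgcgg
Lamp1: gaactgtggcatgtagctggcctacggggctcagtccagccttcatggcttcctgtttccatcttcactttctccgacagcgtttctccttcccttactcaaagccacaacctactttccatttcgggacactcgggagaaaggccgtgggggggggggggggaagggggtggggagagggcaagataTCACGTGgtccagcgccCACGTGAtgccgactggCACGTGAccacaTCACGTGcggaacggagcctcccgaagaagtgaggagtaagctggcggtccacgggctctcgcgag
Ctsd: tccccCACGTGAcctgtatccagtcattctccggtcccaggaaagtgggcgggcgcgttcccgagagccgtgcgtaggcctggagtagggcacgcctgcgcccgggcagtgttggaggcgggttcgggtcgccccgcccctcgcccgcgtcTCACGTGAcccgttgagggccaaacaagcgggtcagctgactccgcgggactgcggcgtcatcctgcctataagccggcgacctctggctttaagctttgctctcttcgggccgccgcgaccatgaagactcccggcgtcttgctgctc

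Ctsa, at chr2:164833523-164833822 (plus strand), has 2 copies between −13 and 12 relative to the start of that window, an inner one for this gene. Cln3, at chr7:126583187-126583486 (minus strand), has 2 copies between −149 and −115, also relative to an inner start. Atp6v0b, at chr4:117887280-117887579 (minus strand), has 2 copies between −37 and −13. Those 3 genes and Gaa, at chr11:119267713-119268012 (plus strand) with 1 copy from −141 to −135, all fell in TKO. Lamp1, at chr8:13158911-13159210 (plus strand), has 4 copies between −62 and −10, and Ctsd, at chr7:142387778-142388077 (minus strand), has 2 between −245 and −92; neither passed the test. Neu1, the gene with the most negative change, has no TCACGTG in its window.

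Among the 42 tested genes with a window, 6 of the 14 that held TCACGTG fell (42.9%), and 6 of the 28 that did not (21.4%), with medians of −0.20 and −0.23 on the log2 scale. Over all tested genes with a window, 13.3% of those with the element and 14.7% of those without it fell, with a median of −0.01 in both. The letters are a description of the window, and no difference between these shares was tested.

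Among the hydrolases and their cofactors, 6 of 21 fell (28.6%) and none rose, while 13.6% of all genes tested fell and 14.3% rose. The median log2 change was −0.19. For 5 of the 21, every TKO library was lower than any THC library, a pattern that 19.5% of all genes tested showed. One gene of the 21 had an unadjusted p under 0.05 for a higher level, Grn, and the authors' deposited table also called none higher. The enzymes that fell act on glycans (Neu1, Gaa), proteins (Ctsa, Tpp1) and lipids (Asah1, Lipa).

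Neu1, the sialidase that removes terminal sialic acids, lies at chr17:34931253-34935953 on the plus strand. It had 225, 192 and 246 normalized counts in TKO, against 633, 597 and 514 in THC. The groups lay far apart, with means of 221 ± 27.2 in TKO and 581 ± 61.2 in THC (SD, n = 3 each), a change of −1.39 on the log2 scale (SE 0.17, adjusted p = 7.3e-05). The February pair gave −1.49 and the November libraries −1.34. Ctsa, the protective protein that Neu1 and the beta-galactosidase Glb1 need to form a stable complex, lies at chr2:164832873-164841032 on the plus strand. It had 2202, 1654 and 1805 in TKO and 4058, 3624 and 2680.3 in THC (log2 −0.86, SE 0.14, adjusted p = 0.00062). Glb1, the third partner, had 942, 672 and 720.5 in TKO and 915, 915 and 783 in THC, with groups that overlapped (log2 −0.17, SE 0.14, adjusted p = 0.38). Exons of Ctsa overlap those of Pltp and Neurl2 on the other strand, and the library type does not keep the strand. Pltp averaged 3238 in TKO and 3753 in THC and did not pass (log2 −0.19, adjusted p = 0.68), and Neurl2 averaged 14.4 in TKO and 14.8 in THC.

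Gaa, the acid alpha-glucosidase that breaks down glycogen, had 2014, 1100.5 and 1316 normalized counts in TKO and 3487, 2929 and 2027 in THC. Its highest TKO library stood just below its lowest THC library (log2 −0.94, SE 0.15, adjusted p = 0.00073; −0.79 in February and −1.02 in November). The other 6 glycan-degrading genes did not pass: Glb1, Man2b1, Gusb, Hexa, Naglu and Sgsh had log2 changes from −0.32 for Man2b1, a mannosidase, to 0.13 for Naglu, which acts on heparan sulfate. Man2b1 had 766, 356 and 381 in TKO and 732, 558 and 497 in THC, and so differed by 0.07 in February and −0.51 in November. Sgsh, the sulfamidase of the same heparan sulfate route as Naglu, was the lowest enzyme of the set, with 113, 61.3 and 98.5 in TKO and 94.2, 87.8 and 71.7 in THC.

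Tpp1, a tripeptidyl peptidase, had 3195, 2263 and 2696 normalized counts in TKO and 5006, 3998 and 3188 in THC. The groups overlapped by 1 library each, TKO 1 and THC 3, and the fall passed with batch in the model (log2 −0.57, SE 0.14, adjusted p = 0.0079; 0.0501 without TKO 1). The abundant cathepsins did not pass. Ctsd, the main aspartic protease of the lysosome, had 8645, 4058 and 4596 in TKO and 7121, 5955 and 4516 in THC (log2 −0.08, adjusted p = 0.75). Ctsb, a cysteine protease, had 16168, 9419.8 and 10715 in TKO and 14419, 12173 and 9883 in THC (log2 −0.03, adjusted p = 0.91). Exons of Ctsb overlap those of Fdft1 on the other strand, which averaged 3277 in TKO and 4930.4 in THC and fell (log2 −0.59, adjusted p = 0.0048). For both cathepsins, the library labelled February was the highest of its genotype. Ctsl, Ctsz and the asparaginyl endopeptidase Lgmn had log2 changes of −0.19, 0.15 and −0.14, none of which passed.

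Asah1, the acid ceramidase, had 2409, 1934 and 2089 normalized counts in TKO and 3996, 3261 and 2677 in THC (log2 −0.61, SE 0.13, adjusted p = 0.0036). No TKO library reached the lowest THC library. Lipa, the lipase for cholesteryl esters and triglycerides, had 403, 267 and 318 in TKO and 549, 625 and 388 in THC, where TKO 1 was above THC 3 (log2 −0.65, SE 0.19, adjusted p = 0.025). The call of Lipa ended without TKO 2 (adjusted p = 0.0975), TKO 3 (0.0615) or THC 2 (0.12), and with no batch term (0.055). Psap, the saposin precursor, had the highest level of the set per kilobase of exon, 5477 ± 1480.4 in TKO and 6405 ± 1570.0 in THC (SD, n = 3 each), and did not pass (log2 −0.23, adjusted p = 0.41). Ppt1, which removes palmitate from proteins, and Npc2, the soluble cholesterol carrier, changed by −0.19 and −0.23 on the log2 scale without passing. Grn, progranulin, was the enzyme cofactor with the most positive change, at 3074, 1711 and 1898 in TKO and 2227, 1678 and 1364 in THC (log2 0.32, SE 0.13, adjusted p = 0.085; 0.042 without THC 2).

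**Figure D2:**
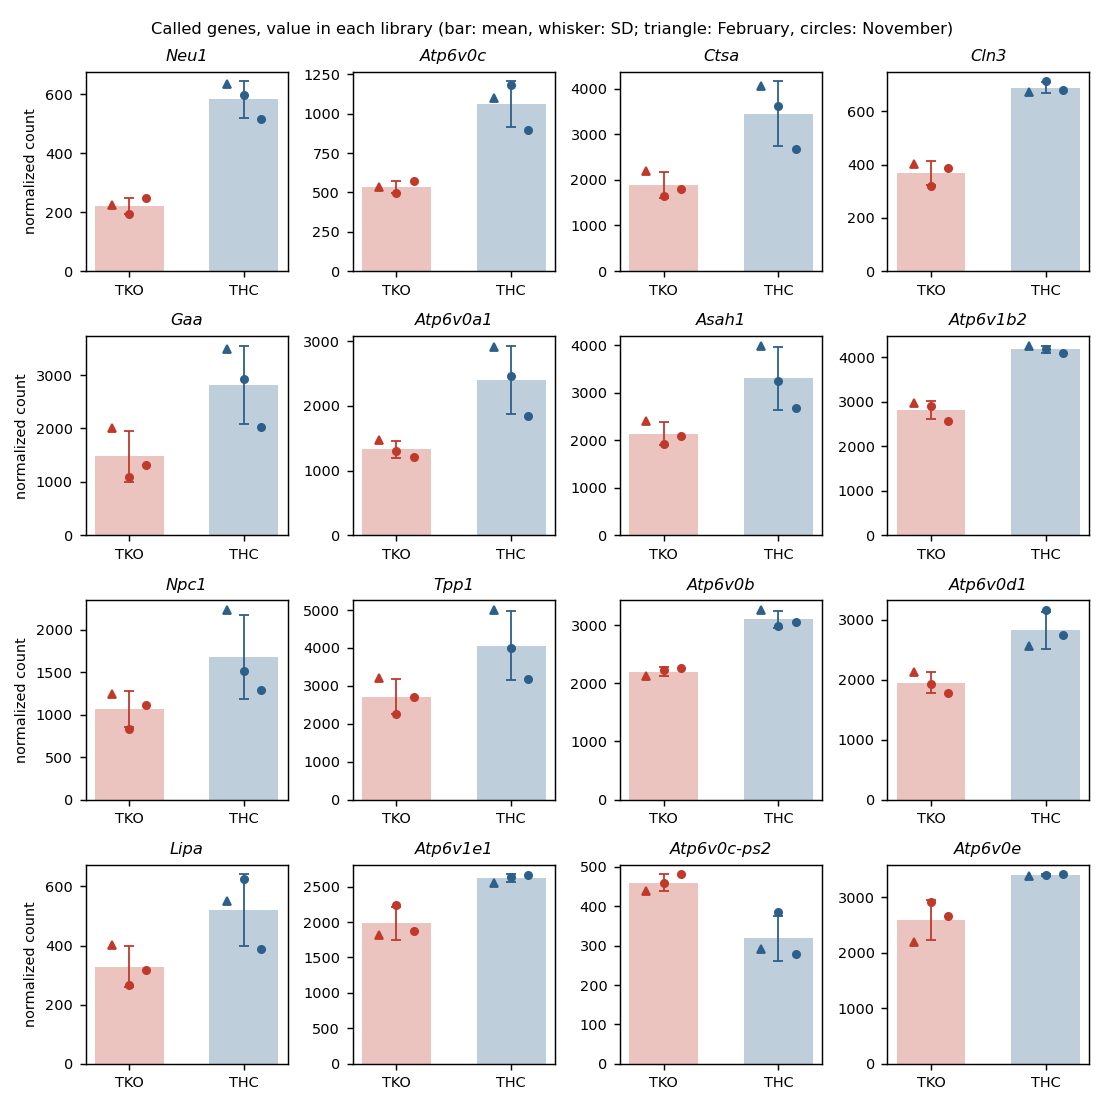
Normalized count of the genes past an adjusted p of 0.05 in each library, TKO left of THC in each panel. Pale bars reach the mean and whiskers show the SD. Triangles mark the February libraries and circles the November libraries. The TKO libraries lie below the THC libraries in 13 panels, overlap them for Lipa and Tpp1, and lie above them for Atp6v0c-ps2.

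The hydrolases moved with batch in both genotypes. TKO 1 was the highest TKO library for 18 of the 21 and THC 1 the highest THC library for 18 of the 21 (85.7% each), whereas this held for 38.0% and 36.5% of all genes tested. The February library exceeded the November mean by a median of 0.44 in TKO and 0.38 in THC on the log2 scale. The V1 and V0 subunits showed no such order, with 7 and 6 of 17 genes highest in TKO 1 and THC 1 and medians of −0.00 and −0.06. Markers of microglia, which are rich in lysosomes, followed the batch as well. Microglia do not descend from neural stem cells, and the YFP gate would be meant to remove them. The summed count of 15 microglia and macrophage markers was 10745, 2855 and 1851 in TKO and 6726, 1692 and 1239 in THC. None of the 15 was at 0, 8 rose and none fell, with a median log2 change of 1.003. Over all genes tested, 14.3% rose and 13.6% fell. The part of these cells and of the batch in the hydrolase values was not tested. Among the November libraries alone, 6 hydrolases were lower at an adjusted p under 0.05, as in all 6 libraries.

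**Figure D3:**
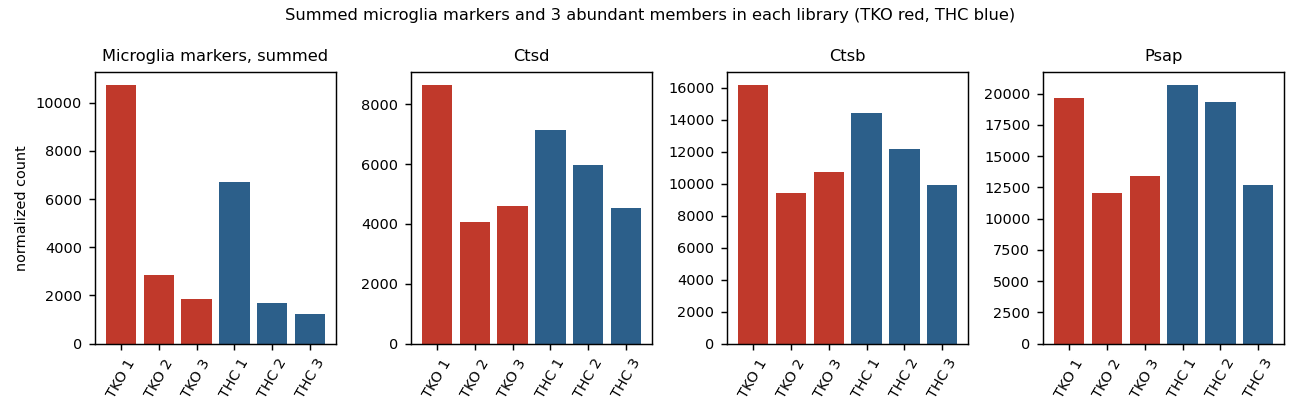
Normalized count in each library, TKO left of THC, of the summed microglia markers and of 3 abundant genes of the set. In each genotype, the February library has the highest marker sum, 10745 in TKO and 6726 in THC. For Ctsd, Ctsb and Psap, the February library is also the highest.

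Of the 8 membrane proteins, 2 fell and none rose, and the median log2 change was −0.14. For 4 of the 8, every TKO library was lower than any THC library. For comparison, 13.6% of all genes tested fell, 14.3% rose, and 19.5% were lower in every TKO library than in any THC library. No difference from these shares was tested. None of the 8 had an unadjusted p under 0.05 for a higher level, and the authors' deposited table called none higher. Cln3, a multipass protein mutated in juvenile neuronal ceroid lipofuscinosis, lies at chr7:126571207-126585817 on the minus strand. It had 401, 319 and 387 normalized counts in TKO and 675, 713 and 681 in THC (log2 −0.91, SE 0.15, adjusted p = 0.00073). The TKO libraries stood well below the narrow THC range, with means of 369 ± 43.9 in TKO and 689 ± 20.6 in THC (SD, n = 3 each). Apobr, which overlaps its exons on the other strand, averaged 15.3 in TKO and 11.3 in THC.

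Npc1, which passes cholesterol out of the lysosome together with Npc2, had 1244, 829.7 and 1115 normalized counts in TKO and 2235, 1518 and 1291 in THC (log2 −0.64, SE 0.15, adjusted p = 0.0065; 0.054 with no batch term). Its exons overlap those of Rmc1 on the other strand, which also fell, with means of 548 in TKO and 870.0 in THC (log2 −0.66, adjusted p = 0.0043), so reads of the pair cannot be told apart where they overlap. Mcoln1, the calcium channel TRPML1, had 1844, 1631 and 1803 in TKO and 2056, 2108 and 1965 in THC. All 3 TKO libraries were lower, without passing (log2 −0.22, SE 0.12, adjusted p = 0.20).

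The structural proteins of the lysosomal membrane did not pass. Lamp1 had 15601, 13044 and 14469.6 normalized counts in TKO and 15771, 15783 and 12866 in THC (log2 −0.04, SE 0.16, adjusted p = 0.88). Lamp2 had 7084, 5884 and 6959 in TKO and 7019, 6073 and 4901 in THC (log2 0.16, SE 0.14, adjusted p = 0.46). Both overlapped between genotypes. Cd63, a tetraspanin, changed by −0.23, Scarb2, the sorting receptor of glucocerebrosidase, by −0.06, and Laptm4a by 0.06 on the log2 scale, and none of the 3 passed.

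The proton pump held 7 of the 15 falls. Of the V0 subunits in the set, 5 of the 7 tested fell (71.4%), with a median log2 change of −0.49. In V1, 2 of the 10 tested subunits fell (20.0%), with a median of −0.19. The shares over all genes tested were 13.6% lower and 14.3% higher. No V0 or V1 gene of the set rose, none had an unadjusted p under 0.05 for a higher level, and the authors' deposited table called none higher. Tcirg1, a V0 gene whose symbol keeps it outside the set, is not in these counts. It rose (log2 0.73, SE 0.15, adjusted p = 0.0033, limma). All 10 V1 genes had a negative change. Among the November libraries alone the falls were 3 in V0 and 1 in V1. Whether the sectors differ was not tested.

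Atp6v0c encodes the proteolipid that forms most of the proton-carrying ring and lies at chr17:24163866-24169702 on the minus strand. It had 532, 495 and 572 normalized counts in TKO and 1097, 1182 and 898 in THC. The highest TKO library was below the lowest THC library, with means of 533 ± 38.2 in TKO and 1059 ± 146 in THC (SD, n = 3 each; log2 −0.98, SE 0.15, adjusted p = 0.00037). Atp6v0b, another ring proteolipid, had 2119.8, 2228 and 2258 in TKO and 3263, 2979 and 3053 in THC (log2 −0.49, SE 0.12, adjusted p = 0.0081). Its TKO libraries were close to each other and below all THC libraries, and without TKO 1 or THC 1 the adjusted p was 0.0724 and 0.0701.

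Atp6v0d1, the subunit that joins the ring to the central stalk, had 2127, 1929 and 1783 normalized counts in TKO and 2563, 3163 and 2739 in THC (log2 −0.53, SE 0.13, adjusted p = 0.0099). Atp6v0e, a small membrane subunit, had 2192, 2912 and 2662 in TKO and 3394, 3404 and 3419.5 in THC (log2 −0.41, SE 0.13, adjusted p = 0.030). Neither gene overlapped between genotypes. The call of Atp6v0e ended without TKO 1 (adjusted p = 0.23), TKO 3 (0.079) or THC 1 (0.23). Its second isoform, Atp6v0e2, had 3706, 3614 and 3414 in TKO and 3600.5, 4653 and 4561 in THC and did not pass (log2 −0.25, SE 0.13, adjusted p = 0.19).

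Atp6v0c and the processed pseudogene Atp6v0c-ps2 (chr6:37806086-37806550, plus strand) are close copies, and how reads common to both were assigned is not given in the sources used here, so both values are uncertain. The pseudogene had 438, 459 and 482 normalized counts in TKO and 291, 385 and 279.7 in THC, all TKO libraries higher (log2 0.54, SE 0.17, adjusted p = 0.030). Its share of the summed count was 45.2, 48.1 and 45.7% in TKO and 21.0, 24.6 and 23.8% in THC. With the rows added, an alternative chosen after seeing the data, the pair had 970.1, 954 and 1054 in TKO and 1387, 1568 and 1178 in THC. The sum was still lower in every TKO library, but by less than Atp6v0c alone (log2 −0.46, SE 0.14, adjusted p = 0.025). The call of the pseudogene ended with the February libraries left out (adjusted p = 0.0851), and without TKO 1 (0.0919), TKO 2 (0.0703), TKO 3 (0.0979), THC 1 (0.0863) or THC 3 (0.117).

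**Figure D4:**
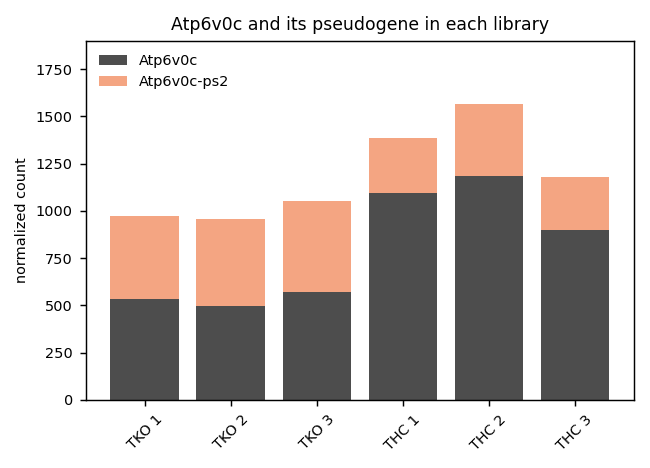
Normalized count of Atp6v0c (dark) with that of Atp6v0c-ps2 stacked on it (light) in each library, TKO left of THC. The total is 954 to 1054 in TKO and 1178 to 1568 in THC, and the pseudogene takes the larger share of it in TKO.

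The a subunit of V0 guides the pump to a membrane and exists in 4 isoforms. Atp6v0a1, the form abundant in neural tissue, had 1468, 1307 and 1205 normalized counts in TKO and 2903, 2456 and 1851 in THC (log2 −0.84, SE 0.14, adjusted p = 0.00076). It lies at chr11:101009452-101063719 on the plus strand. Atp6v0a2 had 1633, 1177 and 1270.0 in TKO and 1585, 1256 and 1074 in THC, so that the groups overlapped (log2 0.06, SE 0.12, adjusted p = 0.75). Tcirg1 encodes the a3 isoform, known from the osteoclast, and is not a gene of the set. It had 687, 505 and 603 in TKO and 375, 361 and 338 in THC (log2 0.73, SE 0.15, adjusted p = 0.0033). Its lowest TKO library was above its highest THC library. Atp6v0a4 did not reach the filter.

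Per kilobase of exon, Atp6v0a1 made up 36.3, 41.2 and 36.5% of the a isoforms in TKO and 58.2, 58.5 and 54.7% in THC, means of 38.0 ± 2.76% and 57.1 ± 2.12% (SD, n = 3 each). Tcirg1 made up 24.2, 22.7 and 26.0% in TKO and 10.7, 12.2 and 14.2% in THC, and Atp6v0a2 39.4, 36.1 and 37.5% in TKO and 31.0, 29.2 and 30.9% in THC. Atp6v0a1 was thus the most abundant isoform in every THC library, and near the level of Atp6v0a2 in TKO. The difference in change between isoforms was not tested. The summed microglia markers were higher in TKO within each batch, as given above, and the summed oligodendrocyte and mature neuron markers were lower. The summed oligodendrocyte markers were 27221, 16080 and 20693 in TKO and 89775, 74637 and 77252 in THC, and the neuron markers 1154, 1221 and 1139 in TKO and 1909, 2751 and 2308 in THC. The part of these cells in the isoform shares was not tested.

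**Figure D5:**
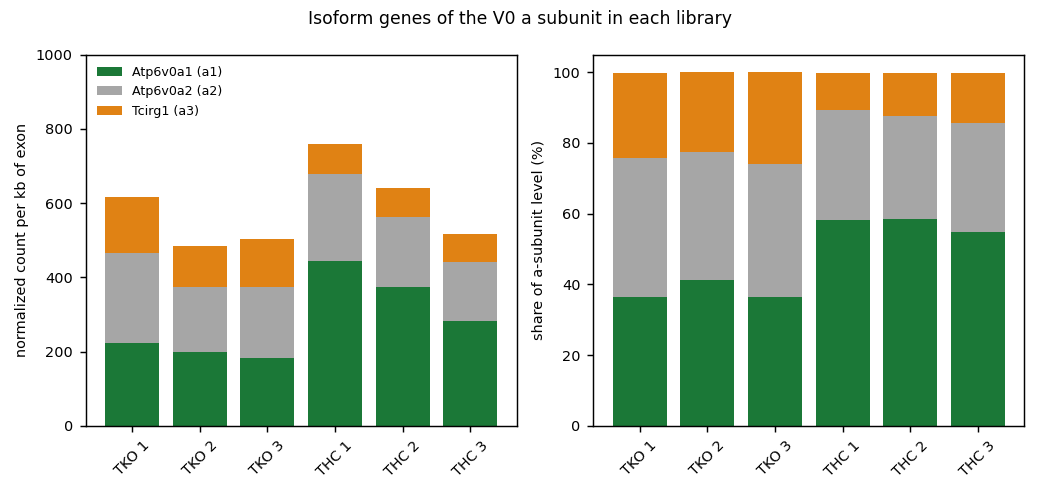
Share of each a subunit isoform, in percent of the isoforms' normalized count per kilobase of exon, in each library, TKO left of THC. Atp6v0a1 takes 36.3 to 41.2% in TKO and 54.7 to 58.5% in THC.

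In the V1 sector, Atp6v1b2, the only B subunit isoform to reach the filter, lies at chr8:69088646-69113711 on the plus strand. It had 2967, 2897 and 2575 normalized counts in TKO and 4246, 4192 and 4084 in THC (log2 −0.57, SE 0.12, adjusted p = 0.0039). The TKO and THC libraries formed separate, narrow ranges, 2813 ± 209 in TKO and 4174 ± 82.5 in THC (SD, n = 3 each). Atp6v1e1, a peripheral stalk subunit, had 1821, 2242 and 1878 in TKO and 2551, 2640.5 and 2661 in THC (log2 −0.41, SE 0.12, adjusted p = 0.026). Its exons overlap those of Slc25a18 on the other strand, which averaged 737 in TKO and 1895 in THC and fell (log2 −1.36, adjusted p = 2.5e-05). How reads in the overlap were assigned is not given in the sources used here, so the call of Atp6v1e1 may include reads of Slc25a18. That call also ended without TKO 1 (adjusted p = 0.13), TKO 3 (0.10), THC 1 (0.13), THC 2 (0.054) or THC 3 (0.0504).

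The remaining V1 genes did not pass. Atp6v1a, the catalytic subunit that hydrolyses ATP beside Atp6v1b2, had a log2 change of −0.14 (SE 0.12, adjusted p = 0.46). Atp6v1h, the regulatory subunit, was lower in every TKO library, at 2807, 2787 and 2414 in TKO and 3129, 2834 and 2904 in THC (log2 −0.15, adjusted p = 0.40). Its exons overlap those of Rgs20 on the other strand, which averaged 1880.3 in TKO and 1327 in THC and rose (log2 0.52, adjusted p = 0.0094). Atp6v1f and Atp6v1d, of the central stalk, changed by −0.24 and −0.02 on the log2 scale.

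For the C and G subunits, 2 isoforms reached the filter. Atp6v1c1 had 1651, 1854 and 1613 normalized counts in TKO and 1789, 1930.3 and 1874 in THC (log2 −0.13, adjusted p = 0.46). Atp6v1c2 had 11.7, 4.3 and 14.5 in TKO and 9.02, 15.1 and 19.2 in THC (log2 −0.55, adjusted p = 0.54). Per kilobase, Atp6v1c1 made up 97.7 to 99.4% of the C subunit in TKO and 97.4 to 98.7% in THC. Atp6v1g1, the fourth most abundant gene of the set per kilobase, had 2535, 3679 and 3011 in TKO and 2614, 3371 and 3813 in THC (log2 −0.09, adjusted p = 0.67). Atp6v1g2, the neuronal G isoform, had 148, 149 and 204 in TKO and 203, 255 and 221 in THC, with 1 TKO library just above the lowest THC library (log2 −0.45, SE 0.20, adjusted p = 0.13).

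The 3 accessory genes did not pass. Atp6ap1, which is needed for pump assembly, came closest, at 5245, 3942 and 4575 normalized counts in TKO and 6456, 5646 and 5116 in THC (log2 −0.33, SE 0.13, adjusted p = 0.079), and the authors' deposited table gave it an adjusted p of 0.052. Atp6ap2, the prorenin receptor, changed by −0.04 and Atp6ap1l by 0.31 on the log2 scale. The genes not tested were Atp6v0a4, Atp6v0d2, Atp6v1b1, Atp6v1e2, Atp6v1g3, Atp6v1fnb and Atp6v0c-ps1, whose normalized counts were at most 4.04 in every library.

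Per kilobase of exon, the levels spanned from Psap, Laptm4a and Lamp1, at means of 5941, 5681 and 5454 normalized counts over the 6 libraries, to Atp6v1c2 at 5.66. The means of these 3 leading genes lay closer together than the SD between libraries of Psap. Neu1, Atp6v0c, Gaa and Cln3, which fell by about 0.91 or more on the log2 scale, had means of 108, 235, 449 and 91.6. Genes that did not pass also had low levels, such as Naglu at 107 and Sgsh at 19.9. A relation between level and change was not tested.

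Lysosomal genes outside the set showed falls and rises. Of 34 other hydrolases, 13 fell (38.2%) and 6 rose, with a median log2 change of −0.20. Over all genes tested, 13.6% fell and 14.3% rose. Galns, which acts on keratan sulfate, rose, with 351, 277 and 257 normalized counts in TKO and 103, 80.3 and 83.8 in THC (log2 1.71, SE 0.20, adjusted p = 6e-05). Ctsf, a cysteine cathepsin, fell, with 1327, 980.1 and 1031 in TKO and 3077, 3176 and 2101 in THC (log2 −1.31, SE 0.15, adjusted p = 6.2e-05). For both genes the groups did not overlap. Of 19 other lysosomal membrane proteins, 8 fell and 1, Tcirg1, rose, with a median of −0.42. Abca2, a lipid transporter known from myelinating cells, fell (log2 −1.21, SE 0.14, adjusted p = 6e-05), as did Glmp, which protects a lysosomal transporter (log2 −0.93, SE 0.15, adjusted p = 0.00078).

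Of 20 tested genes of the mTORC1 route that controls TFEB, 1 fell (5%) and 2 rose, with a median log2 change of −0.13. Neither count exceeds the share over all genes tested, 13.6% lower and 14.3% higher. The gene that fell was Flcn, the folliculin that lets mTORC1 phosphorylate TFEB, with 973, 839 and 765 normalized counts in TKO and 1979, 1818 and 1168 in THC (log2 −0.92, SE 0.16, adjusted p = 0.0012). Rheb, the GTPase that activates mTORC1, rose, with 3143, 3416 and 2953 in TKO and 2293, 2398 and 2653 in THC (log2 0.37, SE 0.12, adjusted p = 0.040). No TKO library of Rheb was below a THC library, but its call ended without TKO 1 (adjusted p = 0.18), TKO 2 (0.15), THC 1 (0.18) or THC 2 (0.11). These are transcript levels, which do not report where TFEB protein was in the cell.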

How the data were processed

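RNA-seq was done on 3 TKO and 3 THC samples of sorted SVZ cells, with total RNA converted by the SMART-Seq v4 kit and libraries made with Nextera XT, per the labels' protocols; this chemistry keeps no strand. Alignment to build GRCm38 and counting involved HISAT2, Subread's featureCounts and DESeq2, per the submitters' processing notes. Their versions and the annotation were not given in the sources used here. The authors' deposited table holds a normalized count per sample, a signal scaled by 1 factor per sample. Per the file headers, it also holds the authors' log2 fold change, score columns (its standard error, the Wald statistic and a weight) and a p-value before and after adjustment. Each sample's values were whole multiples of a step of 0.944 to 1.07 (largest distance from a whole number 4.3e-05), and the totals divided by the step were 15536084 to 16961817. The number of sample columns without a mapped sample was 0.

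The plan foresaw limma on log2(value + 1) if the table held normalized values, and this was done (limma 3.58.1, R 4.3.3) with an intensity trend and batch plus genotype, on genes with at least 10 in at least 3 samples. Residual degrees of freedom were 3 and prior ones 8.90. P-values were adjusted by Benjamini-Hochberg over 17278 genes, with a threshold of 0.05. Log2 changes are TKO over THC and, with 1 added to each value, are understated for low genes. SDs are over 3 samples. Per the series text the replicates are biological.

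Genes and lists were chosen with earlier results of these data known. By rule, all genes of the set are named, with values per sample for those past the threshold, for Tfeb, Tfe3, Mcoln1, Lamp1, Lamp2, Ctsd and Ctsb and for pump isoforms. Of each other list, the 2 genes with the smallest adjusted p are named. Other genes shown with values per sample, and Tcirg1, were picked after their values were seen. Gene spans and exon lengths are from GENCODE M21 (GRCm38), matched by gene identifier, and promoters from RefSeq (GRCm38.p6). Alternatives were another scaling (TMM), pseudocounts, filters, no batch term, a replicate block, November samples only and each sample left out.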

Additional observations from a re-analysis of the deposited data

How the results depend on the processing

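No gene of the set was newly lower under any alternative run. The 15 falls were the same 15 genes with TMM scaling, a pseudocount of 0.5 or 10, a filter of 50 and in the authors' deposited table. They numbered 13 with no filter (without Atp6v0e and Atp6v1e1), 12 with no batch term (without Atp6v0e, Lipa and Npc1), 12 in the November libraries alone (without Atp6v0b, Atp6v0e and Atp6v1e1) and 11 to 14 with each library left out. With no batch term 1 membrane protein fell. With the November libraries alone 4 pump genes fell and 0 genes of the set rose. Leaving out each library gave 4 to 7 pump genes, 5 to 6 hydrolases and 2 membrane proteins that fell, and 0 to 2 genes that rose. Over all genes, 4814 were called, and 3510 to 4246 with a library left out. The replicate number as a block gave 13 falls (without Atp6v0e and Atp6v1e1) and 0 rises. Same-numbered samples correlated at 0.23, −0.11 and 0.14. TKO 1 correlated best with THC 1, and TKO 2 and TKO 3 both with THC 3. Same-numbered samples share a batch label, and the sample labels give no pairing beyond that. Signs that turned belonged to genes that did not pass: in the November libraries Sgsh (−0.030) and Atp6v1d (0.016), and, over the leave-one-out fits, Lgmn (−0.25 to 0.035), Naglu (−0.077 to 0.35), Hexa (−0.21 to 0.019), Atp6v0a2 (−0.0038 to 0.13), Sgsh (−0.098 to 0.29), Atp6ap2 (−0.14 to 0.051), Atp6v1g1 (−0.16 to 0.0020), Ctsd (−0.26 to 0.083), Lamp1 (−0.12 to 0.047), Ctsb (−0.13 to 0.084), Laptm4a (−0.021 to 0.13), Atp6v1c2 (−0.99 to 0.022) and Atp6v1d (−0.082 to 0.030). The cause of these differences was not tested. The planned count tests, edgeR and DESeq2, were not run: the deposited values are normalized, and reads recovered from their steps did not meet the check set for them in 2 THC samples, whose steps lie close to 1. With 3 libraries a genotype, a change that missed the threshold is not shown to be absent, and genes near the filter, such as Atp6v1c2 (SE 0.58), had the widest errors.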

Other observations

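Autophagy delivers cargo to the lysosome, and its genes were listed apart from the set. They held 8 falls (32%) and 1 rise among 25 tested, with a median log2 change of −0.21. Over all genes tested, 13.6% fell and 14.3% rose. Gabarapl1, an ATG8-family protein of the autophagosome membrane, had 1231, 1169 and 1083 normalized counts in TKO and 1860.4, 2334 and 2152 in THC (log2 −0.86, SE 0.13, adjusted p = 0.00041, limma). Map1lc3a, of the same family, had 680.2, 772 and 654 in TKO and 896, 1286 and 1347 in THC (log2 −0.73, SE 0.14, adjusted p = 0.0028). Every TKO library of both genes was below every THC library.

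The proteins that modify new hydrolases and sort them to the lysosome held 1 fall and 1 rise among 10 tested, with a median of −0.21. Neither count exceeds the share over all genes tested, 13.6% lower and 14.3% higher. Sumf1, which activates the sulfatases, rose, with 1047, 943 and 1092 in TKO and 653, 808 and 602 in THC (log2 0.59, SE 0.15, adjusted p = 0.011; 0.0531 without TKO 3). Gnptg, a subunit of the enzyme that adds the mannose 6-phosphate tag, fell, with 1178, 1392 and 1380.1 in TKO and 1717, 1928 and 1801 in THC (log2 −0.47, SE 0.12, adjusted p = 0.011; 0.0650 without TKO 1 and 0.0645 without THC 1).

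The other cell type markers moved too, and their counts stand beside 13.6% lower and 14.3% higher over all genes tested. Summed markers of activated stem cells and progenitors were 44047 to 51969 in TKO and 17681 to 23621 in THC, with 4 of 8 genes that rose. Those of neuroblasts were 11868 to 15166 in TKO and 19749 to 26062 in THC, with 6 of 8 that fell. Those of quiescent stem cells and astrocytes were 179917 to 227489 in TKO and 217707 to 348084 in THC, with 4 of 12 that fell and 1, Gfap, that rose. Those of endothelial and mural cells were 3468 to 5298 in TKO and 7689 to 13567 in THC, with 6 of 8 that fell. Those of ependyma were 5485 to 7132 in TKO and 4218 to 13540 in THC, with 3 of 7 that fell and 1 that rose. None of these markers was at 0 in all libraries, and their part in the lysosomal gene values was not tested.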
